A study of Mus musculus with 4 samples.

Results

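Non-traced basal keratinocytes of mouse dorsal epidermis were divided by their content of *Thbs1* mRNA, and the cells with much and with little *Thbs1* were compared within each library. The 2 classes were chosen by *Thbs1* itself. A cell was called Thbs1-high when at least 1 of every 1000 of its unique molecular identifiers (UMIs, each standing for 1 captured mRNA molecule) belonged to *Thbs1*, and Thbs1-low otherwise. Of 68 non-traced cells with at least 2000 gene UMIs, 21 were Thbs1-high and 47 were Thbs1-low, out of 161 such cells in the whole series. The level of *Thbs1* is therefore a description of the classes and not a result.

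All cells came from female *Ivl-CreERT2*/*R26-tdTomato* mice at post natal day 57 that had received tamoxifen (10 µg per g by the labels, intraperitoneally) 2 days earlier. The methods of the study give a higher dose. In these mice, Cre driven by the Involucrin (*Ivl*) promoter switches on the red protein tdTomato, so non-traced (Tom−) cells are those that carried no such label, whether or not *Ivl* was ever active in them. Live cells positive for CD49f and LY6A and negative for CD34 were sorted into non-traced and traced (Tom+) cells, and each sort was captured on 2 Fluidigm C1 chips of 96 wells, 1 per replicate. The submitters describe 2 mice, but the labels do not tie a chip to a mouse, so the spread between libraries may be partly technical.

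*Thbs1* encodes thrombospondin-1, a secreted matricellular glycoprotein that binds CD36, CD47, syndecans and integrins and can release active TGF-β from its latent complex. In keratinocytes it is made at low levels in resting skin and is known as a target of YAP and of serum- and wound-induced signalling. Basal keratinocytes hold to the basement membrane through integrins and express *Krt5*, *Krt14* and *Krt15*, and cells that enter differentiation switch on *Krt1* and *Krt10* and later genes such as *Krtdap*.

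In replicate 1, 3 of 20 non-traced cells were Thbs1-high (15%, 95% Clopper-Pearson interval 3.21 to 37.9), and in replicate 2, 18 of 48 (37.5%, 24.0 to 52.6). The intervals cover counting error only. In the traced libraries the same limit gave 2 of 35 cells (5.71%, 0.700 to 19.2) and 7 of 58 cells (12.1%, 4.99 to 23.3). *Thbs1* was concentrated in few cells. The Thbs1-high cells held 53 of the 64 *Thbs1* UMIs of replicate 1 and 242 of the 258 of replicate 2, while 10 of 20 and 20 of 48 cells had none and 7 and 10 cells had some below the limit. The classes are set by a limit on *Thbs1* alone, and whether they are 2 kinds of cell was not tested. The 3 cells just under the limit had 0.732, 0.796 and 0.930 *Thbs1* UMIs per 1000, and the 3 just above it 1.16, 1.25 and 1.44. All of these were in replicate 2, where the highest cell reached 13.0. In replicate 1 the cells nearest to the limit lay at 0.644 and 1.80.

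**Figure D1:**
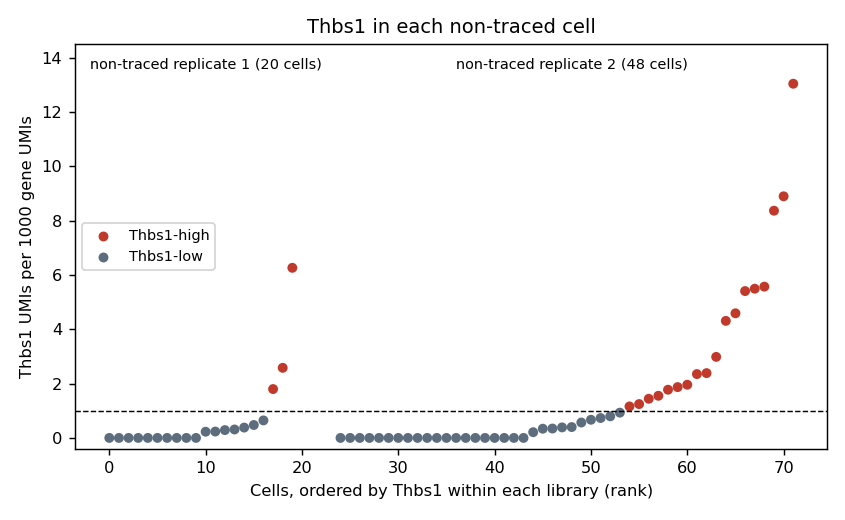
*Thbs1* UMIs per 1000 gene UMIs (y axis) in each of the 20 and 48 non-traced cells, ordered within each library (x axis), with the limit of 1 per 1000 as a dashed line. The cells nearest to the limit are at 0.644 and 1.80 in replicate 1 and at 0.930 and 1.16 in replicate 2, where the highest is at 13.0.

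The summed counts compared below were 14993 and 66637 gene UMIs for the Thbs1-high and Thbs1-low cells of replicate 1, and 72067 and 112511 for those of replicate 2. The 3 Thbs1-high cells of replicate 1 are thus the thinnest sum. The median gene UMIs per cell were 5004 in Thbs1-high against 3513 in Thbs1-low cells of replicate 1, and 3144 against 3278 in replicate 2. The median mitochondrial share was 5.22% against 6.38% and 7.13% against 6.42%, and the median share of ERCC spike-in molecules was 1.77% against 2.57% and 3.29% against 3.10%. The direction of each of these differed between the libraries. The kept cells of both chips shared 8 well positions, which are wells of separate chips and not shared cells.

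The first comparison asks which genes differ between Thbs1-high and Thbs1-low cells of the same library. *Krtdap*, which encodes a secreted peptide of differentiating keratinocytes, was the gene that passed the test. It was lower in Thbs1-high cells. In replicate 1 it was at 0 UMIs in the Thbs1-high sum against 9.75 per 10000 gene UMIs in the Thbs1-low sum, and in replicate 2 at 0 against 9.69. Thbs1-high cells held 0 of 65 and 0 of 109 *Krtdap* UMIs. With the Thbs1-high cells of both libraries together held at 3 UMIs, the summed level of *Krtdap* was 28.2-fold lower in them. This value covers the counting of UMIs only and not which cells were captured, and 5 cells held 90.8% of the UMIs. The fitted log2 fold change of -9.01 (SE 0.96, edgeR quasi-likelihood test with the library as a block, Benjamini-Hochberg adjusted p = 0.0140) rests on the prior count and is no bound.

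In the same edgeR test 1 of 1148 genes was called (0.0871%), with 0 higher and 1 lower in Thbs1-high cells. At an unadjusted p under 0.05 there were 55 genes higher and 34 lower. The filter on low counts knew the classes (filterByExpr). A gene kept through the sums of a single class alone is higher in that class in both libraries by this choice. Of the genes with levels given here, this held for *Thbs2*, *Itga3*, *Tgif1*, *Epgn*, *Ovol1*, *Srf*, *Atp1b1* and *Ndrg1* (Thbs1-high). It also held for *Krtdap*, *Mt4*, *Sostdc1*, *Gm94*, *Chmp1a* and *Hspe1* (Thbs1-low). *Krtdap* was also called with a filter blind to class. The DESeq2 Wald test called 1 higher and 1 lower, limma-voom 21 higher and 5 lower, and edgeR with DESeq2 size factors 6 higher and 6 lower. Over genes, the within-library log2 ratios of replicate 1 and replicate 2 (levels per 10000, with 0.5 added) had a Pearson correlation of 0.27 across 1148 genes, which are not independent replicates and share each library's depth.

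**Figure D2:**
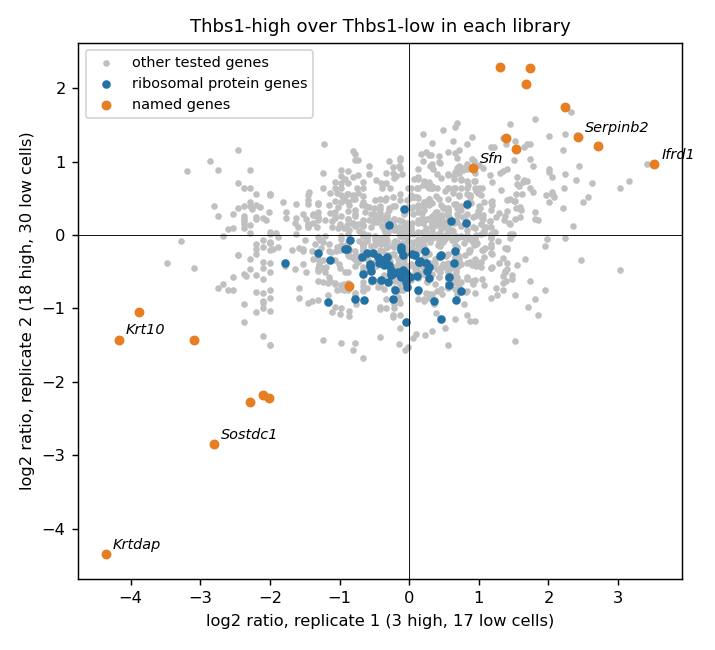
Log2 ratio of Thbs1-high over Thbs1-low level (UMIs per 10000 gene UMIs, with 0.5 added) in replicate 1 (x axis) and replicate 2 (y axis) for the 1148 tested genes, with ribosomal protein genes in blue and the named genes in orange. *Krtdap* lies farthest to the lower left, and 46 of 74 ribosomal protein genes lie below 0 on both axes.

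The call for *Krtdap* came from few cells. Its 174 UMIs were in 10 of 68 cells, and the 5 cells with the most held 90.8% of them. Of these 10 cells, 9 had no *Thbs1* UMI, 1 had some below the limit and 0 were Thbs1-high. After each cell was thinned to 2000 UMIs, *Krtdap* was found in 3 of 17 Thbs1-low cells of replicate 1 (17.6%, 3.80 to 43.4) and in 4 of 30 of replicate 2 (13.3%, 3.76 to 30.7). In Thbs1-high cells it was found in 0 of 3 (0%, 0 to 70.8) and in 0 of 18 (0%, 0 to 18.5). In single cells the difference in the share of *Krtdap*-positive cells was thus within the counting intervals. When the 5 cells with at least 3 *Krt10* UMIs per 1000 were left out, all of them Thbs1-low, *Krtdap* no longer had enough UMIs to be tested and 0 genes were called by edgeR (74 at an unadjusted p under 0.05). Without non-traced replicate 1, or without non-traced replicate 2, edgeR likewise called 0 genes (23 and 31 at an unadjusted p under 0.05), while the fitted log2 fold change of *Krtdap* was -9.78 and -9.45. With 1 sum per class left in the non-traced cells, no named gene passed in either setting, so the lost call says nothing about its stability.

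Because this gene carries the call, the window around its start site is printed from RefSeq (build GRCm38.p6, chr7:30787655-30787954, + strand, 250 bases before to 50 after the start), next to that of *Serpinb2*, the gene with the next smallest p (chr1:107511173-107511472, + strand). Capitals mark the AP-1 motif TGANTCA, searched on both strands.
*Krtdap*: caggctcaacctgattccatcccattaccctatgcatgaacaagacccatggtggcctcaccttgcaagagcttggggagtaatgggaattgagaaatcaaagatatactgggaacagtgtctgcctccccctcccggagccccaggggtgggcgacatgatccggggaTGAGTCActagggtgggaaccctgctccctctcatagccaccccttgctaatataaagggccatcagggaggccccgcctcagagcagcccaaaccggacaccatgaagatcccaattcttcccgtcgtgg
*Serpinb2*: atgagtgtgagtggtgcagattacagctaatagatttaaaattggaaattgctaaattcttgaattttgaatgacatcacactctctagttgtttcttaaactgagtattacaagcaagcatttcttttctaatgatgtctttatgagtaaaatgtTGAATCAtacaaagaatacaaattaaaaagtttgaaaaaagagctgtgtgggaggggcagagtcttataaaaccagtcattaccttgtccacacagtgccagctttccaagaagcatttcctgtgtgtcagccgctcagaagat

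The motif began 81 bases before the *Krtdap* start and 94 bases before this *Serpinb2* start. It was present in 7.81% of the 32851 windows of the table and in 6.23% of the 1123 windows of tested genes. The TEAD motif GGAATG (14.7% of all windows) and the NF-kB motif GGANTTTCC (1.25%) were searched in the same way and were in neither window. Of the 10 genes named below as higher in Thbs1-high cells, 7 had a window, and the AP-1 motif was in that of 1 gene, the TEAD motif in that of 1 (*Ifrd1*) and the NF-kB motif in 0. Of the 10 named as lower, 5 had a window and 2 held the AP-1 motif (*Krtdap* and *Fam25c*). These matches describe letters only.

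*Krtdap* was followed by other differentiation genes that did not pass the test. *Krt10*, the main suprabasal type I keratin, was at 0.667 per 10000 in Thbs1-high against 20.6 in Thbs1-low cells of replicate 1, and at 3.19 against 9.42 in replicate 2. The log2 fold change was -2.32 (SE 0.54, edgeR adjusted p = 0.362). Its partner *Krt1* was at 0.667 against 9.45 and at 1.67 against 5.33. The epithelial metallothionein gene *Mt4* was at 1.33 against 6.90 and at 0.278 against 3.11. Each of the 3 genes lay lower in the Thbs1-high sum of both libraries, as did 30.0% of all tested genes. Like *Krtdap*, they were carried by few cells. The 5 Krt10-positive cells, which are 2 of 17 and 3 of 30 Thbs1-low cells and 0 of 21 Thbs1-high cells, held 60.3% of the *Krt10* UMIs, 58.8% of the *Krt1* UMIs and 67.1% of the *Mt4* UMIs.

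Within the Thbs1-low class, cells with some *Thbs1* and cells with none were not alike in these genes. In replicate 1, *Krt10* was at 29.9 per 10000 in the 10 cells with no *Thbs1* UMI, at 8.31 in the 7 cells with some and at 0.667 in the 3 Thbs1-high cells. In replicate 2 it was at 12.7 in 20 cells with none, at 0.652 in 10 cells with some and at 3.19 in 18 Thbs1-high cells. *Krtdap* was at 17.0, 0.346 and 0 in replicate 1 and at 13.3, 0 and 0 in replicate 2. In both libraries the cells without *Thbs1* had the highest level. No test was made of this order. All 5 Krt10-positive cells were among the cells without *Thbs1*, and they held 60.3% of the *Krt10* UMIs and 70.1% of the *Krtdap* UMIs of both libraries. The median depth of the 3 sets was 3305, 4253 and 5004 gene UMIs in replicate 1 and 3488, 2922 and 3144 in replicate 2.

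**Figure D3:**
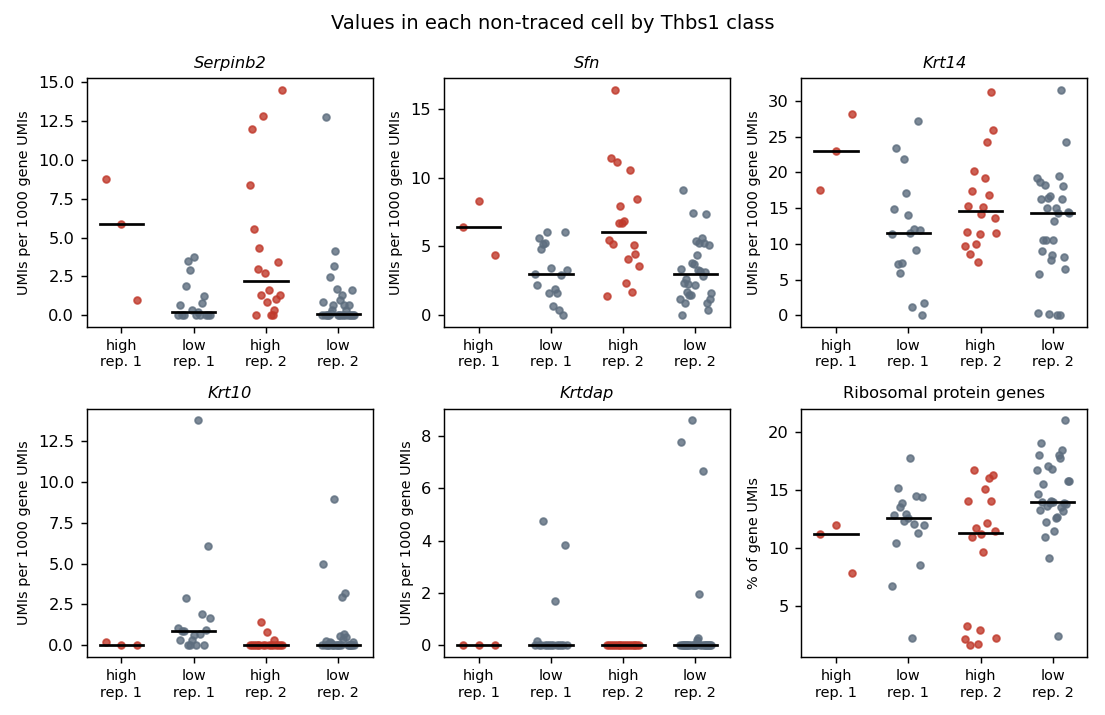
Each point is 1 non-traced cell, by Thbs1 class and replicate (x axis). The y axis gives UMIs per 1000 gene UMIs of 5 genes, and in the last panel the share of gene UMIs from ribosomal protein genes. Black bars are medians. *Krtdap* is at 0 in all 21 Thbs1-high cells, *Sfn* is found in most cells of both classes, and 6 Thbs1-high cells of replicate 2 lie below 5% in the ribosomal panel.

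The list of 30 differentiation genes, which holds all of these, had 11 tested members. Of these, 1 was called lower (*Krtdap*), 8 were lower in Thbs1-high cells of both libraries, against 30.0% of all tested genes, and 1 was higher in both, against 27.9%. The median log2 fold change was -0.78, and it was unchanged with *Krtdap* held at 3 UMIs in Thbs1-high cells, while over all tested genes it was -0.07. *Sbsn*, encoding suprabasin, was at 0.667 against 5.40 and at 1.94 against 3.11 per 10000. *Ly6d* was at 8.004 against 20.4 and at 18.6 against 24.7. *Dmkn*, a neighbour of *Krtdap* and *Sbsn* in the genome that encodes dermokine, was at 8.004 against 20.6 in replicate 1 and at 21.4 against 17.1 in replicate 2, so its direction differed between the libraries. The member higher in both was *Ovol1*, a transcription factor of keratinocyte differentiation, at 3.33 against 0.600 and at 1.67 against 1.24. The filter kept *Ovol1* through the Thbs1-high sums alone, and *Krtdap* and *Mt4* through the Thbs1-low sums alone, which set their directions. Without the Krt10-positive cells, which were chosen by a member of the list and are all Thbs1-low, the median of the list was -0.07. In that setting the median of all tested genes was -0.08.

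Among the genes higher in Thbs1-high cells, *Serpinb2* came nearest to the threshold. It encodes plasminogen activator inhibitor type 2, a serine protease inhibitor of keratinocytes. In replicate 1 it was at 52.0 per 10000 in Thbs1-high against 9.30 in Thbs1-low cells, and in replicate 2 at 31.4 against 12.2, a log2 fold change of 1.83 (SE 0.29, edgeR adjusted p = 0.0758). *Serpinb2* was thus higher in both libraries, as were 27.9% of all tested genes. The 3 Thbs1-high cells of replicate 1 had 44, 5 and 29 *Serpinb2* UMIs. In thinned cells it was found in 3 of 3 against 8 of 17 cells (47.1%, 23.0 to 72.2) in replicate 1, and in 15 of 18 (83.3%, 58.6 to 96.4) against 11 of 30 (36.7%, 19.9 to 56.1) in replicate 2. The intervals of replicate 2 did not overlap in thinned cells. At full depth they did, with 15 of 18 (58.6 to 96.4) against 15 of 30 cells (50.0%, 31.3 to 68.7). In replicate 2 the level was 87.7 per 10000 in 6 Thbs1-high cells with a low share of ribosomal protein gene UMIs, described below, and 16.3 in the other 12. It passed the threshold in 13 of 23 alternative settings, and its adjusted p ran from 1.02e-09 to 0.999 over them.

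*Sfn*, encoding stratifin, a p53 target that restrains cell division, was at 63.4 against 33.5 per 10000 in replicate 1 and at 66.3 against 35.02 in replicate 2 (log2 fold change 0.87, SE 0.23, edgeR adjusted p = 0.380). It was the most abundant of the 10 genes named as higher and was found in 21 of 21 Thbs1-high cells. The median per 1000 gene UMIs was 6.39 against 3.01 and 6.06 against 2.99. In the 17 cells with some *Thbs1* below the limit it was at 28.4 and 33.6 per 10000, close to the 37.4 and 35.6 of the cells with none.

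The other 8 of the 10 genes named as higher did not pass the test either, with edgeR adjusted p from 0.362 to 0.416. Genes acting on the cytoskeleton were *Csrp1*, a LIM protein of actin fibres, at 11.3 against 3.60 and at 10.8 against 4.53 per 10000, *Eppk1*, the keratin-binding epiplakin, at 8.67 against 3.001 and at 5.83 against 2.04, and *Srf*, the serum response factor, at 4.00 against 0.450 and at 2.36 against 0.356. *Ifrd1*, a transcriptional coregulator, was at 29.3 against 2.10 and at 9.85 against 4.80. The signalling and metabolic genes were *Itpkc*, an inositol trisphosphate kinase, at 10.7 against 1.20 and at 4.16 against 1.51, *Azin1*, an inhibitor of antizyme, at 7.34 against 1.95 and at 4.16 against 0.622, *Ndrg1*, a stress-responsive gene, at 3.33 against 1.05 and at 5.41 against 0.711, and *Atp1b1*, a subunit of the sodium pump, at 2.67 against 0.450 and at 2.78 against 0.178. Each of them was higher in Thbs1-high cells of both libraries, as were 27.9% of all tested genes. For *Srf*, *Ndrg1* and *Atp1b1* this direction was set by the filter on low counts. They were chosen by the sign of the fitted fold change and a small p in these same data.

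**Figure D4:**
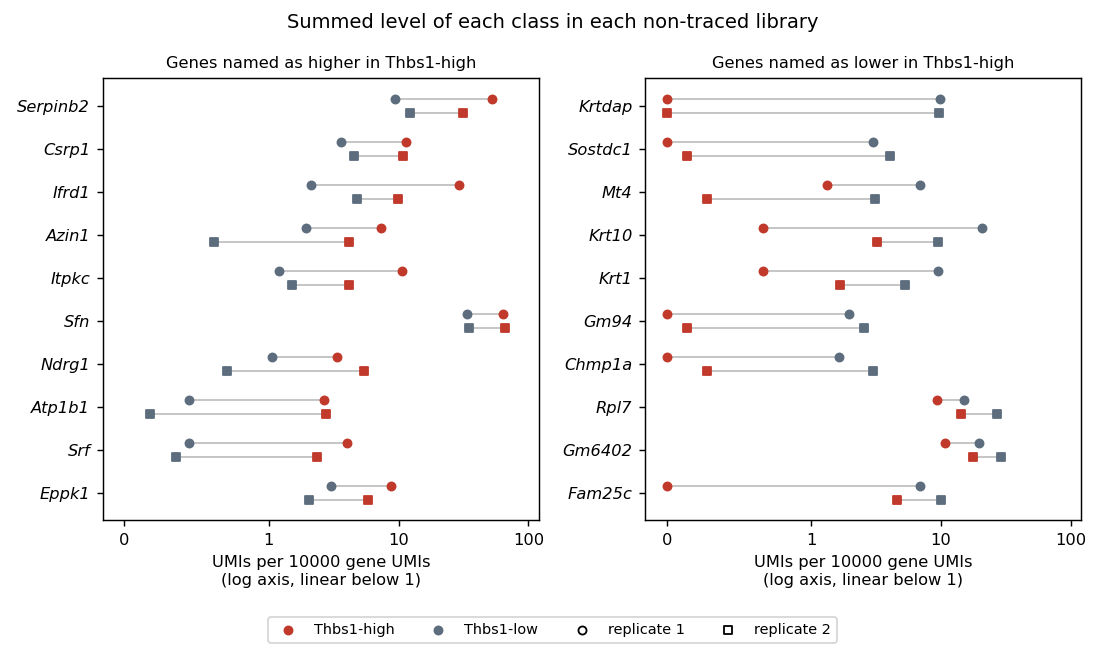
Summed level (UMIs per 10000 gene UMIs, log axis that is linear below 1) of the 10 genes named as higher and the 10 named as lower in Thbs1-high cells. Red marks Thbs1-high and grey Thbs1-low, with circles for replicate 1 and squares for replicate 2. *Krtdap* is at 0 in both Thbs1-high sums against 9.75 and 9.69, and *Serpinb2* is at 52.0 and 31.4 against 9.30 and 12.2.

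The other genes named as lower were of several kinds. *Sostdc1*, an antagonist of BMP and Wnt signalling, was at 0 against 3.001 and at 0.139 against 4.09 per 10000 (log2 fold change -4.88, SE 0.99, edgeR adjusted p = 0.297). *Sostdc1* is also on the list of 10 infundibulum and upper follicle markers, whose summed level was 12.7 in Thbs1-high against 11.9 in Thbs1-low cells of replicate 1 and 7.22 against 16.4 in replicate 2. At least 3 of these markers were found in 0 of 3 and 1 of 18 Thbs1-high cells and in 3 of 17 and 10 of 30 Thbs1-low cells. The part of such cells in the result for *Sostdc1* was not tested. *Chmp1a*, a subunit of the membrane-remodelling ESCRT machinery, was at 0 against 1.65 and at 0.278 against 3.02. *Gm94* was at 0 against 1.95 and at 0.139 against 2.58, and 97.7% of its UMIs were in the 5 Krt10-positive cells. *Fam25c* was at 0 against 6.90 and at 4.58 against 10.0. *Gm6402* was at 10.7 against 19.8 and at 17.8 against 29.2. The ribosomal protein gene *Rpl7* was at 9.34 against 15.01 and at 14.3 against 26.8, and the count of such a gene is uncertain because near-identical pseudogene copies can take part of its reads.

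The genes given with *Thbs1* as markers of the Thbs1-high class could not be judged as a group, since only 1 of them had enough UMIs to be tested. Without *Thbs1*, their summed level in Thbs1-high against Thbs1-low cells was 14.01 against 1.35 per 10000 in replicate 1. In replicate 2 it was 4.995 against 3.82. *Adam8*, a membrane metalloprotease, had too few UMIs to be tested. It had 12 UMIs in 2 of 3 Thbs1-high cells and 0 in 17 Thbs1-low cells of replicate 1, and 7 UMIs in 5 of 18 against 5 UMIs in 4 of 30 cells of replicate 2. *Icam1*, an adhesion molecule for leukocytes, also had too few, with 2 UMIs against 4 and 9 against 19, which is 1.33 against 0.600 and 1.25 against 1.69 per 10000. The classes overlapped for *Icam1*. *Tnfrsf12a*, the receptor of TWEAK, was at 4.67 against 0.750 and at 2.78 against 1.69 per 10000, a log2 fold change of 1.36 (SE 0.68) that did not pass the test (edgeR adjusted p = 0.658). Both classes are called by their *Thbs1* content alone.

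The basal keratins were found in most cells of both classes, with *Krt14* at 0 UMIs in 1 of 17 and 2 of 30 Thbs1-low cells. *Krt5* was at 156 against 114 and at 147 against 129 per 10000 (log2 fold change 0.27, SE 0.22, edgeR adjusted p = 0.843). *Krt14* was at 229 against 110 and at 154 against 132 (0.58, SE 0.25, adjusted p = 0.620). *Krt15* went the other way, at 36.7 against 118 in replicate 1 and at 114 against 131 in replicate 2 (-0.93, SE 0.37, adjusted p = 0.604). Its difference came mainly from replicate 1, without which its log2 fold change was -0.22. Each keratin was found in 21 of 21 Thbs1-high cells. The list of 22 basal and adhesion genes had 17 tested members, of which 8 were higher and 4 lower in both libraries (27.9% and 30.0% of all tested genes, median log2 fold change 0.27). *Col17a1*, the hemidesmosomal collagen, was at 32.0 against 24.3 and at 32.2 against 22.1, and *Itga6*, which encodes the CD49f used in the sort, at 8.004 against 4.50 and at 10.3 against 5.24. In Thbs1-high cells of replicate 1, *Cav1*, *Ntrk2* and *Bcam* were at 0 UMIs, in a sum of 3 cells.

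Other thrombospondins and their receptors made a list of 15 genes, of which 7 were tested, 4 were higher and 1 was lower in both libraries (27.9% and 30.0% of all tested genes), and 0 were called (median log2 fold change 0.63). *Sdc4*, the syndecan of focal adhesions, was at 23.3 against 11.3 and at 18.5 against 14.1 per 10000. *Itga3*, an integrin subunit, was at 3.33 against 1.20 and at 2.50 against 0.800. *Thbs2*, the closest relative of *Thbs1*, was at 3.33 against 0.450 and at 1.53 against 0.978. *Itga3* and *Thbs2* were kept by the filter through the Thbs1-high sums alone, so their direction was set by it. *Itgb1* was the member lower in both, at 0.667 against 0.750 and at 1.53 against 1.69. Of 17 genes of TGF-β ligands, activation and targets, 2 were tested and both were higher in both libraries (27.9% of all tested genes), *Tgfbi* at 9.34 against 6.60 and at 10.8 against 8.89, and *Tgif1* at 3.33 against 0.450 and at 2.50 against 1.16. The direction of *Tgif1* was likewise set by the filter.

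Of 24 YAP target genes, 4 were tested and all 4 were higher in Thbs1-high cells of both libraries (27.9% of all tested genes), with 0 called (median log2 fold change 0.73). *Thbs1* is itself a YAP target and was left out. *Cyr61*, a matricellular protein, was at 16.01 against 12.8 and at 24.7 against 11.4 per 10000, and *Igfbp3*, a binding protein of insulin-like growth factors, at 9.34 against 5.40 and at 12.9 against 7.47. The median of the list was -0.20 without replicate 2, -0.12 without the filter on low counts and -0.08 with cells of at least 5000 UMIs, settings in which the median of all tested genes was -0.36, -0.43 and -0.01.

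NF-kB targets and cytokines numbered 30, of which 6 were tested, 5 were higher and 0 lower in both libraries (27.9% and 30.0% of all tested genes), and 0 were called (median log2 fold change 0.88). *Nfkbia*, the NF-kB inhibitor, was at 22.01 against 12.01 and at 22.1 against 13.5 per 10000. *Tnfaip3*, encoding A20, was at 8.67 against 5.10 and at 7.35 against 3.02. *Nfkbiz* was at 8.004 against 4.20 in replicate 1 and at 4.72 against 5.51 in replicate 2. The median kept its sign in 23 of 23 alternative settings, from 0.03 to 1.52.

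Of 31 AP-1 and immediate early genes, 21 were tested, 12 were higher and 3 lower in both libraries (27.9% and 30.0% of all tested genes), and 0 were called (median log2 fold change 0.28). *Fos* was at 36.7 against 34.5 and at 42.0 against 29.3 per 10000, *Atf3* at 24.7 against 23.7 and at 40.4 against 28.2, and *Jun* at 22.01 against 14.1 and at 25.1 against 16.1. *Btg1*, *Fosl2* and *Gadd45b* were the 3 lower in both. The median was -0.45 without replicate 2 and -0.02 without the filter on low counts, where that of all tested genes was -0.36 and -0.43.

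Wound-edge and migration genes numbered 40, of which 9 were tested, with 4 higher and 2 lower in both libraries (27.9% and 30.0% of all tested genes, median log2 fold change 0.06). The median was -0.22 without the filter on low counts and -0.08 without 1 Thbs1-high cell of replicate 1, where that of all tested genes was -0.43 and -0.08. *Serpinb2* is a member. *Krt16*, a keratin of activated epidermis, was at 18.7 against 5.10 and at 6.24 against 4.00 per 10000, whereas *Krt6a* was at 2.00 against 3.001 and at 2.08 against 2.13 and *Krt17* at 12.01 against 7.50 and at 5.41 against 7.47. Of the 34 actin cytoskeleton and MRTF-SRF genes, 17 were tested, 7 higher and 4 lower in both (27.9% and 30.0% of all tested genes, median 0.11). *Actg1*, encoding cytoplasmic γ-actin, was at 70.0 against 37.8 and at 32.7 against 24.2, and *Ezr*, encoding ezrin, at 8.67 against 3.45 and at 4.72 against 1.78. *Actb*, next to *Actg1* in abundance, had a log2 fold change of 0.03. Of 15 genes of the EGF receptor and its ligands, 3 were tested, 1 higher and 0 lower in both (27.9% and 30.0% of all tested genes). The most abundant, *Hbegf* and *Errfi1*, had log2 fold changes of -0.03 and 0.41. The member higher in both was the ligand *Epgn*, at 2.00 against 0 and at 1.94 against 0.267, a direction set by the filter. The summed level of this list was 4.67 against 6.90 in replicate 1 and 9.02 against 6.04 in replicate 2. In each of these 3 lists 0 genes were called.

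Stress lists were mixed, and 0 of their members were called. Of 17 heat shock genes 11 were tested, 3 higher and 4 lower in both libraries (27.9% and 30.0% of all tested genes). The most abundant, *Hsp90ab1* and *Hspa8*, had log2 fold changes of -0.26 and -0.35. *Hspe1*, the member with an unadjusted edgeR p under 0.05, was at 1.33 against 2.70 and at 1.39 against 5.07 per 10000. Its direction was set by the filter on low counts. Of 26 hypoxia and glycolysis genes 9 were tested, 4 higher and 1 lower. Of 19 integrated stress response genes 2 were tested, both higher, with *Atf4* at 4.67 against 3.60 and at 8.33 against 4.00. Of 17 p53 targets 3 were tested, and *Sfn* was the 1 that was higher in both, while *Perp* was at 22.01 against 36.6 and at 35.4 against 34.0. Proliferation genes were scarce. Of 42 S phase genes 0 could be tested, with a summed level of 11.3 against 12.2 and 7.91 against 11.0. Of 53 G2/M genes 4 were tested, 0 higher and 3 lower in both (27.9% and 30.0% of all tested genes), with a summed level of 32.7 against 39.8 and 19.4 against 34.6.

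**Figure D5:**
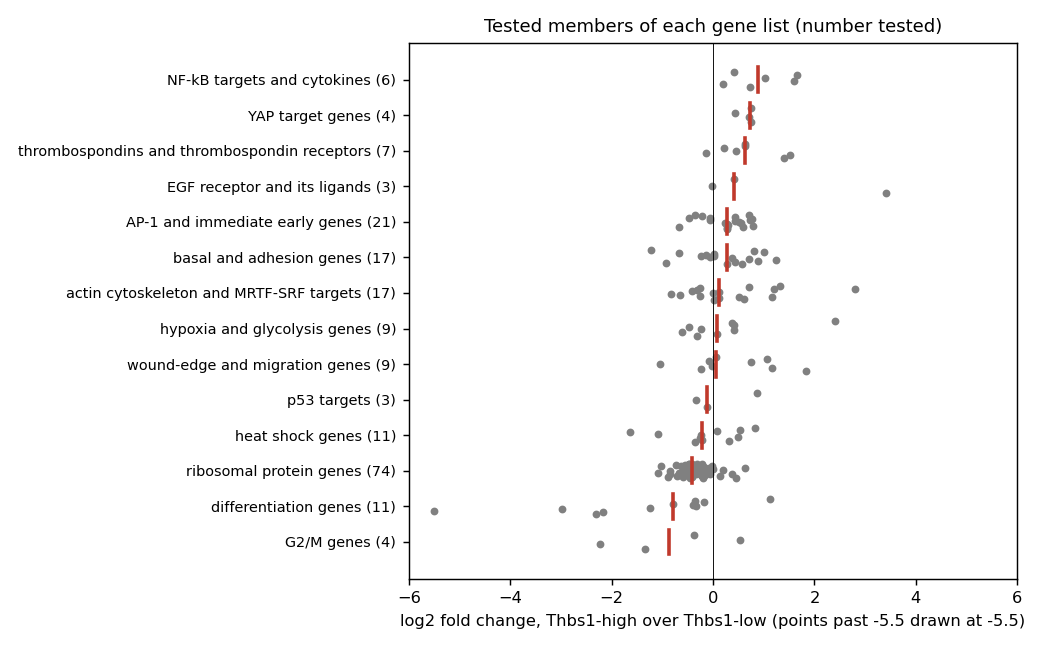
Log2 fold change (x axis, Thbs1-high over Thbs1-low, edgeR) of the tested members (grey points) of each gene list with at least 3 tested members, with the list's median in red and the number tested in parentheses. Medians run from -0.86 for G2/M genes to 0.88 for NF-kB targets, and the 74 ribosomal protein genes centre at -0.42.

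Ribosomal protein genes, which encode the subunits of the cytoplasmic ribosome, were the largest group with a shared direction. Of 74 tested, 46 were lower and 3 higher in Thbs1-high cells of both libraries, against 30.0% and 27.9% of all tested genes, and 0 were called (median log2 fold change -0.42). Their summed level was 1032 against 1190 per 10000 in replicate 1 and 1045 against 1421 in replicate 2. *Rplp1* was at 64.0 against 68.4 and at 69.4 against 83.8, and *Rps29* at 52.0 against 61.4 and at 59.3 against 84.7. The median was -0.41 with DESeq2 size factors and negative in 23 of 23 alternative settings, from -0.79 to -0.15.

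The ribosomal share of single cells was not evenly spread. A group of cells had under 5% of their gene UMIs from ribosomal protein genes, and over all 161 cells no cell lay between 3.38% and 5.38%. In replicate 2 they were 6 of 18 Thbs1-high cells (33.3%, 13.3 to 59.0) and 1 of 30 Thbs1-low cells (3.33%, 0.0844 to 17.2). In replicate 1 they were 0 of 3 and 1 of 17 cells. The 6 cells of replicate 2 included the 5 with the highest *Thbs1* share, and had from 4.31 to 13.0 *Thbs1* UMIs per 1000. They were shallower, with a median of 2435 gene UMIs against 3602 in the other 12 Thbs1-high cells, a mitochondrial share of 9.35% against 6.40% and a spike-in share of 4.62% against 2.75%. *Serpinb2* was at 87.7 per 10000 in these 6 cells and at 16.3 in the other 12, against 12.2 in all Thbs1-low cells, and *Sfn* was at 49.4 and 70.8.

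With all cells under 5% left out, an alternative added after the values had been seen, *Krtdap* was again the 1 gene called. The log2 fold change of *Serpinb2* was then 1.30 (edgeR adjusted p = 0.672), that of *Sfn* was 0.89, and the median of the ribosomal protein genes was -0.33. In the traced libraries, 1 of 2 and 0 of 7 Thbs1-high cells and 3 of 33 and 2 of 51 Thbs1-low cells lay under 5%. Whether RNA quality, which moves with this share here, has a part in these results was not tested.

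The same limit on *Thbs1* was applied to the traced cells, as the same measure in libraries that the choice of genes did not use. With 2 Thbs1-high cells in replicate 1 (6965 gene UMIs) and 7 in replicate 2 (37266), their values are given without a test. Of the 10 genes named as lower, 9 were lower in Thbs1-high traced cells of both libraries, against 35.2% of the tested genes, and of the 10 named as higher, 7 were higher in both, against 20.8%. *Krtdap* was at 2.87 against 49.2 per 10000 and at 12.9 against 67.4, and *Krt10* at 15.8 against 60.4 and at 33.8 against 54.2. *Sfn* was at 77.5 against 41.1 and at 88.3 against 50.3. *Serpinb2* was at 11.5 against 10.4 in replicate 1 and at 31.1 against 11.0 in replicate 2. *Ifrd1*, *Azin1* and *Ndrg1* were at 0 in the 2 Thbs1-high cells of replicate 1.

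As lists, the differentiation genes were lower in both traced libraries for 8 of 11 tested members, against 35.2% of all tested genes. AP-1 and immediate early genes were higher in both for 14 of 21, against 20.8%. The summed level of the AP-1 list was 559 against 167 per 10000 in traced replicate 1, with its 2 Thbs1-high cells, and 232 against 191 in traced replicate 2. Ribosomal protein genes were lower in both for 27 of 74 and higher for 5, a share of lower members close to that of all genes. The difference between the class effects of non-traced and traced cells was tested for 1567 genes in 1 fit over all 8 sums. By edgeR 0 genes were called (0%, with 26 at an unadjusted p under 0.05), by the DESeq2 Wald test 0 and by limma-voom 0. Traced replicate 1 enters this fit with its 2 Thbs1-high cells.

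Markers of other cell types were mostly at or near 0 in both classes, apart from the infundibulum and upper follicle list. That list had 19 UMIs in Thbs1-high and 79 in Thbs1-low cells of replicate 1, and 52 and 185 in replicate 2. The lists of T cell, Langerhans cell, myeloid, platelet, melanocyte, fibroblast, endothelial, Merkel cell, bulge, sebaceous gland and erythroid markers each had at most 13 UMIs in a Thbs1-high or Thbs1-low sum, apart from 22 T cell UMIs and 16 sebaceous gland UMIs in Thbs1-low cells of replicate 2. The T cell UMIs were in Thbs1-low cells, of which 1 had at least 3 markers, and Thbs1-high cells had 0. The *Thbs1*-rich platelets were represented by *Gp1bb* alone, at 3 UMIs in each Thbs1-high sum and 6 and 5 in the Thbs1-low sums, with the other 9 markers at 0. Endothelial and erythroid markers were at 0 in both classes. Leaving out the cells with at least 3 markers of another type, 1 Thbs1-high and 14 Thbs1-low cells, gave 11 called genes. Of these, 4 were higher (*Ifrd1*, *Itpkc*, *Ndrg1* and *Serpinb2*) and 7 lower (*Fam25c*, *Gm94*, *Krt1*, *Krt10*, *Krt15*, *Krtdap* and *Mt4*). Most of the cells left out had at least 3 infundibulum and upper follicle markers, as did 3 Thbs1-low cells of replicate 1 and 10 of replicate 2.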

How the data were processed

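Cells were sorted from dorsal epidermis of 2 mice and captured on 4 Fluidigm C1 chips. The authors made libraries with STRT chemistry, which counts molecules at the 5′ end of mRNAs, and deposited raw UMI counts of each well by gene, as whole numbers. The submitters' processing notes name the builds mm10 and GRCm38, and the paper cites its predecessor for how reads became counts. Each table had 24378 gene rows, of which 1207 name a locus of a symbol, beside 109 spike-in and reporter rows that were left out of gene totals. The non-traced libraries had 81630 and 184578 gene UMIs in kept cells, and 64 and 26 of their 96 wells had none.

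Counts of kept cells were summed per class and library, and *Thbs1* was dropped. The 4 sums were tested with edgeR 4.0.16 in R 4.3.3 (filterByExpr by class, TMM, quasi-likelihood test, the library as a block, Benjamini-Hochberg adjustment over all genes tested, threshold 0.05). Both classes of a library came from the same chip, which is the pairing behind the block, and their deviations from the class means correlated at 0.18 over genes. The 8 sums of all libraries were fitted in the same way for the difference between class effects. edgeR's common biological coefficient of variation came to 0.24. Levels are summed UMIs per 10000 gene UMIs. Shares of cells used counts thinned to 2000 UMIs per cell with seed 1, with 95% Clopper-Pearson intervals. For the fold of *Krtdap*, a summed count of 0 was held at 3 counts. No doublet caller was run.

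The genes named are those proposed as markers with *Thbs1*, 7 keratinocyte genes, and called members or the most abundant members of most lists. The most abundant members are not given for the hypoxia, S phase and G2/M lists, and only in part for some others. Per direction of the fitted fold change, 10 genes were also taken, called genes first and then those with the smallest p. All of them moved the same way in both libraries. The choice did not require this, but the filter did for genes kept through the sums of a single class. Further members are given as examples or exceptions within a list and were chosen after their values were seen. The 17 gene lists, the 12 cell type lists, the classes and the tests were chosen with earlier results of these data known. Alternatives were other UMI minima (1000, 5000), *Thbs1* limits of 0.5 and 2 per 1000 or any UMI, thinned counts, left-out cells, libraries and replicates, other filters and scalings, DESeq2 1.42.0 and limma 3.58.1. The cells left out for their ribosomal share, and the Thbs1-high cells of replicate 1 left out in turn, were chosen after seeing the data.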

Additional observations from a re-analysis of the deposited data

How the results depend on the processing

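The number of genes called, 1 in the reported setting, moved with most choices. It was 3 with cells of at least 1000 UMIs, 0 with at least 5000, 17 with a *Thbs1* limit of 0.5 per 1000, 17 with a limit of 2, 6 with any *Thbs1* UMI against none, 19 with cells thinned before summing, 3 without the 5% of cells with the most UMIs, 11 without cells with 3 markers of another cell type and 0 without Krt10-positive cells. It was 12 with DESeq2 size factors, 2 with the DESeq2 Wald test, 26 with limma-voom, 3 with no filter on low counts and 11 with a filter blind to class. It ran from 0 to 7 over settings that leave out 1 library or 1 Thbs1-high cell of replicate 1, and the log2 fold change of *Krt5* from -0.067 to 0.31. Where a library was left out, the lone sums were assumed to vary like those of the traced libraries. Without the replicate block it was 1, and the block changed no call. *Krtdap* was called in 19 of 23 alternatives, *Serpinb2* in 13 and *Krt10* in 12. *Krtdap* missed the threshold at 5000 UMIs per cell and without either non-traced library, where 1 sum per class was left and no named gene passed, and was not tested without Krt10-positive cells. The cause of these moves was not tested, and the left-out settings also have fewer cells.

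Of 524 values of named genes under alternatives, 431 kept their side of the threshold, 88 passed it in addition, 3 lost it and 2 turned. Both were *Krt5*, at -0.11 with no filter on low counts and -0.067 without non-traced replicate 2, settings in which the median of all genes was -0.43 and -0.36. Medians of the differentiation, ribosomal, NF-kB and thrombospondin receptor lists kept their sign in all 23 alternatives, and those of the other 12 of 16 lists changed sign in 1 to 6 of them. Without Krt10-positive cells the differentiation median was -0.07, close to the -0.08 of all tested genes. A second thinning seed left 102 of 104 shares within their intervals. The DESeq2 and limma-voom fits planned for traced cells alone were not run, since 2 Thbs1-high cells in a library were under the minimum of 3 set for a test. Depth limited the test to 1148 genes, and *Adam8* and *Icam1* were not among them.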
